A study of Mus musculus with 11 samples.

Results

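The genes described here are the 11 genes of the striatal RNA-seq table whose symbol is Gpr followed directly by a number, the naming series of orphan G-protein-coupled receptors, among 1767 genes in all. The symbols are Gpr4, Gpr21, Gpr27, Gpr30, Gpr37l1, Gpr56, Gpr61, Gpr116, Gpr146, Gpr155 and Gpr165, and 10 of them carry no letter after the number. RNA was sequenced from cells sorted from the striatum of wild-type male B6 (C57BL/6) mice, in 6 control samples (NT2) and 5 knockdown samples (YAYC). All mice received an adeno-associated virus, AAV1/2, into the striatum of both hemispheres at 6 weeks of age, and the tissue was taken 3 weeks later and dissociated with papain. In the YAYC group the virus carried EmGFP, a green fluorescent protein, with miRNAs against NF-YA and NF-YC (YA-8/YC-2), and in the NT2 group it carried EmGFP with a non-targeting miRNA. Both vectors used the CAG promoter, which is not specific to a cell type, and cells positive for EmGFP and negative for the dead-cell dye PI were collected by FACS. The design text gives 5 and 6 injected mice, but the labels do not tie each sample to a mouse, so the spread between samples may be partly technical.

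The table had been chosen by the contrast described here. Each of its genes has a deposited p-value under 0.05 for knockdown against control, and genes outside that threshold were not analysed here. The differences between NT2 and YAYC are therefore given as descriptions, with no test for a single receptor. None of the 8 listed neuron markers and none of the 15 listed markers of striatal projection neurons was among the genes analysed, so that the label of the sorted cells could not be checked against them. In brain sections the paper found most EmGFP cells positive for the neuronal marker NeuN. It also met glial genes among its differing genes, for which it proposes partial infection of glia or contamination during sorting. The paper then removed non-neuronal genes, a step not made here. The counts of all listed genes added up to between 1581757 and 3141324 per NT2 sample and between 1954949 and 3010153 per YAYC sample, which is not the depth of the libraries. Nfyc, which encodes one of the targeted subunits, had normalized counts from 733 to 1206 with a median of 898 in NT2 and from 603 to 976 with a median of 840 in YAYC, a log2 fold change of -0.19 ± 0.15 (SE) and groups that overlapped. With the authors' scaling of the samples its log2 fold change was -0.32. By qRT-PCR on the sorted cells the paper reports a significant reduction of NF-YC and none that was significant for NF-YA. NF-YA was not analysed here.

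G-protein-coupled receptors cross the cell membrane several times and pass an outside signal to heterotrimeric G proteins, which act on adenylyl cyclases, phospholipases and ion channels. A receptor is called an orphan while its natural ligand is not settled, and several genes of the series have since been renamed. In the brain such receptors are found on neurons and also on astrocytes, oligodendrocyte precursors, microglia and endothelial cells. NF-Y, a transcription factor built of an A, a B and a C subunit, binds the letters CCAAT in promoters.

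The motif letters CCAAT, on either strand (ATTGG when read on the gene's strand), were searched in the RefSeq promoters of the receptors (build GRCm38.p6), which reach from 250 bases before the start site to 50 bases after it. Promoters were matched for 8 of the 11 receptors, with 12 start sites. The motif lay in 5 of these 12 windows (41.7%), against 37.4% of the 32851 windows in the RefSeq table and 38.7% of the windows of genes in the striatal table. Counted by gene, 5 of 8 receptors (62.5%) had the motif at a start site, against 41.1% of 27025 genes, 44.4% of the genes of the striatal table and 48.0% of its genes called lower, of whose windows 41.5% had it. Of the genes called higher 36.6% had it, and of their windows 31.8%. The paper, over wider windows, reports a local enrichment of the motif for its down-regulated striatal genes only. A match of letters is a description and not a binding site. The stretches that hold the motif are shown because the knockdown targeted the factor known for these letters. They are printed 5′ to 3′ on the gene's strand, with the motif in capitals, and end before the start site.
Gpr37l1: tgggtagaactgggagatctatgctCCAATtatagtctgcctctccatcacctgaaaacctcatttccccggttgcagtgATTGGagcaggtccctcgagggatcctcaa
Gpr146: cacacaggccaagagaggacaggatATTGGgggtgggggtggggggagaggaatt
Gpr4: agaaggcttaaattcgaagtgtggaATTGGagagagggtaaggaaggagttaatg
Gpr116: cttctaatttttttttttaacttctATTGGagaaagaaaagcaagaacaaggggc
Gpr165: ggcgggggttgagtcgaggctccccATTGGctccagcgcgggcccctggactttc
The Gpr37l1 stretch lies at chr1:135167760-135167869 on the minus strand and holds the motif in both orientations, with first bases at -163 and -108 from the start site. The others are on the plus strand, at chr5:139377576-139377630 for Gpr146, chr7:19212315-19212369 for Gpr4, chr17:43389276-43389330 for Gpr116 and chrX:96713383-96713437 for Gpr165, and all read ATTGG. Their motifs begin at -96 (Gpr146), -198 (Gpr4), -165 (Gpr116, upstream of the second of its start sites) and -60 (Gpr165). The motif was not in the windows of Gpr30, Gpr56 and Gpr155. Gpr21, Gpr27 and Gpr61 had no entry.

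**Figure D1:**
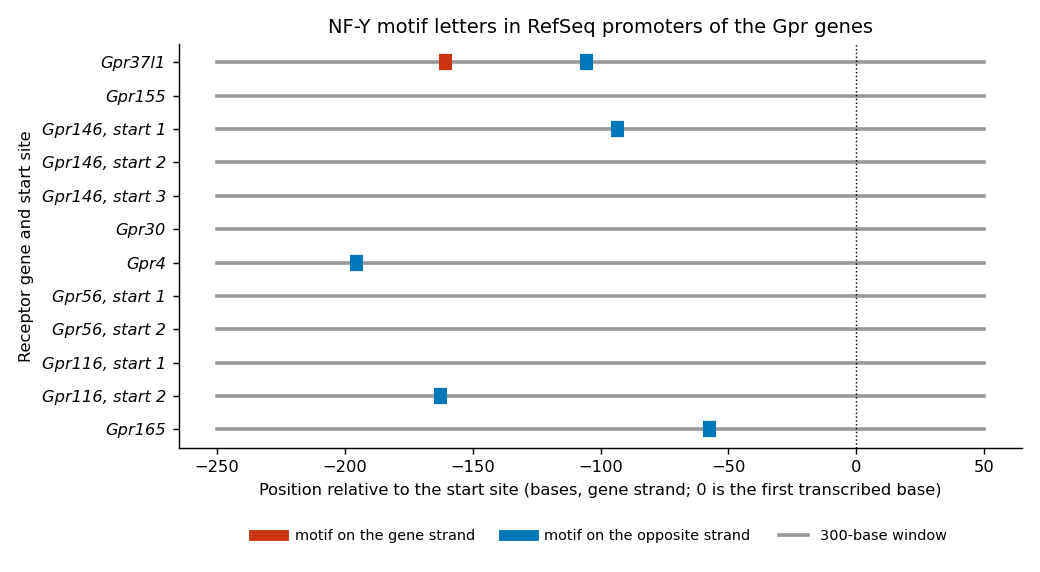
Positions of the letters CCAAT in the 12 RefSeq promoter windows of 8 Gpr genes, on the gene's strand (red) or the opposite strand (blue), against the distance from the start site in bases. Gpr37l1 has 2 matches in 1 window, and Gpr146, Gpr4, Gpr116 and Gpr165 have 1 match each.

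All 11 receptors had a lower mean normalized count in YAYC than in NT2, with log2 fold changes from -1.23 (Gpr61) to -0.15 (Gpr56). Normalized counts are the authors' estimated counts divided by a TMM factor for each sample, and log2 fold changes with their standard errors (SE) come from edgeR fitted to the whole table. TMM takes most genes as unchanged, which cannot be assumed in a table chosen by this contrast. The zero point of the fold changes, and with it the calls, therefore depends on the scaling. Of all listed genes, 57.5% were lower. The median log2 fold change was -0.66 for the receptors and -0.13 for all listed genes. The authors' own scaling of the samples, recovered from their log2 values, moved the median of all genes by -0.13, and the receptors then had a median of -0.80 with all 11 again lower.

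Gpr37l1, a receptor related to the endothelin receptors and known from astrocytes, had the highest level of the series. Its gene lies at chr1:137056827-137064258 on the minus strand in the table's coordinates (mm9, the build in the submitters' processing notes) and has 2 exons in GENCODE M21. Its normalized counts in NT2 were between 3607 and 10360 with a median of 8013, and those in YAYC were 4241, 4504, 5002, 4495 and 4715. The NT2 samples were spread widely, with 4 above every YAYC sample, replicate 23 at 4311 within the YAYC range and replicate 3 below it, while the YAYC samples lay close together. The mean was 7233 ± 2728 (SD, n = 6) in NT2 and 4591 ± 284 (SD, n = 5) in YAYC, a log2 fold change of -0.66 ± 0.24 (SE), or -0.80 ± 0.26 with the authors' scaling. The coefficient of variation was 37.7% in NT2 and 6.19% in YAYC.

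The adhesion receptors Gpr56 and Gpr116 carry long outer parts that are cut from the membrane part by the receptor itself. Gpr56 (Adgrg1 in GENCODE), known from oligodendrocyte precursors and cortical development, had counts between 5197 and 6996 with a median of 6147 in NT2 and counts of 6399, 4682, 6394, 4881 and 5382 in YAYC. The groups overlapped over most of their range, YAYC replicates 4 and 8 being above the NT2 median. The means of 6176 ± 739 (SD, n = 6) and 5548 ± 816 (SD, n = 5) gave the smallest log2 fold change of the series in this fit, -0.15 ± 0.12 (SE), which was -0.29 with the authors' scaling and -0.10 without YAYC replicate 6. Gpr116 (Adgrf5 in GENCODE), known from lung surfactant balance and from endothelial cells, had counts between 1063 and 1810 with a median of 1199 in NT2 and counts of 923, 1412, 1103, 1023 and 716 in YAYC. NT2 replicates 21 and 23 stood above every YAYC sample, 3 YAYC samples lay below every NT2 sample, and YAYC replicate 6 lay above 4 of the NT2 samples. Its means were 1331 ± 290 (SD, n = 6) and 1035 ± 256 (SD, n = 5), and its log2 fold change was -0.36 ± 0.18 (SE). The genes lie at chr8:97501009-97538108 and chr17:43526415-43596506 in mm9, both on the plus strand.

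Gpr4, a receptor that senses protons and is known from endothelial cells, lies at chr7:19797887-19809525 on the plus strand (mm9). Its counts ranged from 132 to 277 with a median of 188 in NT2 and were 103, 137, 156, 122 and 61.1 in YAYC. NT2 replicates 9, 21 and 23 were above every YAYC sample, replicates 3, 5 and 7 were within the upper part of the YAYC range, and YAYC replicate 22 was the lowest of all. The means of 194 ± 61.2 (SD, n = 6) and 116 ± 36.3 (SD, n = 5) gave a log2 fold change of -0.75 ± 0.28 (SE).

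Gpr30 (Gper1 in GENCODE), known as a membrane receptor of estrogen, had counts between 155 and 410 with a median of 333 in NT2 and counts of 128, 166, 209, 198 and 211 in YAYC. NT2 replicate 3 was the lowest control, and the other 5 NT2 samples, of which replicate 5 was lowest at 304, lay above every YAYC sample. The means were 322 ± 91.6 (SD, n = 6) and 182 ± 35.3 (SD, n = 5), a log2 fold change of -0.82 ± 0.23 (SE). Gpr146, an orphan receptor known from the control of cholesterol in the liver, lies 26.77 kb away on the same strand and had counts between 1200 and 1632 with a median of 1383 in NT2 and counts of 1159, 1310, 1333, 823 and 1223 in YAYC. YAYC replicate 10 was well below all other samples, and 4 NT2 samples were above every YAYC sample. Its means were 1394 ± 158 (SD, n = 6) and 1170 ± 206 (SD, n = 5), and its log2 fold change was -0.25 ± 0.13 (SE), -0.39 with the authors' scaling and -0.15 without YAYC replicate 10. With the authors' scaling Gpr146 was the 1 receptor whose groups did not overlap. Gpr146 (chr5:139856621-139872368) and Gpr30 (chr5:139899133-139903754) are on the plus strand in mm9, and in GENCODE M21 both lie within 3110082I17Rik on the opposite strand. The sources used here do not say whether the counting used strand, so reads of overlapping genes may be shared.

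Gpr155, a protein of the lysosome membrane known to sense cholesterol, lies at chr2:73179564-73224455 on the minus strand (mm9), with 17 exons in its longest transcript. It had counts between 2278 and 3823 with a median of 3064 in NT2 and counts of 2745, 2408, 2387, 1873 and 2595 in YAYC. NT2 replicates 5 and 9 lay within the YAYC range, the other 4 NT2 samples lay above it, and YAYC replicate 10 was the lowest of all. The means were 3082 ± 562 (SD, n = 6) and 2401 ± 330 (SD, n = 5), a log2 fold change of -0.36 ± 0.14 (SE). The antisense genes Gm13703 and Gm13709 overlap it in part.

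Gpr165, an orphan receptor, lies on the X chromosome at chrX:93908807-93914727 on the plus strand (mm9). Its counts ranged from 130 to 265 with a median of 183 in NT2 and were 101, 51.7, 201, 45.4 and 91.2 in YAYC. YAYC replicate 8 was among the NT2 samples, and the other 4 YAYC samples were below every NT2 sample. The means of 186 ± 49.8 (SD, n = 6) and 97.9 ± 62.2 (SD, n = 5) gave a log2 fold change of -0.94 ± 0.36 (SE), which was -1.37 without YAYC replicate 8 and -0.75 without YAYC replicate 10.

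The orphan receptors Gpr61, Gpr27 and Gpr21 had the lowest counts, with fewer than 200 in every sample. The paper left out genes whose highest read count was below 200, a minimum that these receptors do not reach. They were kept here. Gpr61, which resembles receptors of biogenic amines, had normalized counts between 35.5 and 98.8 with a median of 52.1 in NT2 and of 29.9, 10.6, 8.61, 41.9 and 32.6 in YAYC. YAYC replicate 10 was above the 2 lowest NT2 samples, and the other 4 YAYC samples were below every NT2 sample. The means of 58.6 ± 24.5 (SD, n = 6) and 24.7 ± 14.5 (SD, n = 5) gave the largest fold of the series in this fit, a log2 fold change of -1.23 ± 0.44 (SE). Gpr27, a highly conserved receptor found mainly in brain, had counts between 17.1 and 30.1 with a median of 23 in NT2 and of 8.71, 11.6, 11.1, 26.7 and 19.6 in YAYC. YAYC replicates 10 and 22 lay within the NT2 range and the other 3 below it. The log2 fold change was -0.55 ± 0.35 (SE), from means of 23 ± 5.27 (SD, n = 6) and 15.5 ± 7.47 (SD, n = 5), and it was -0.84 without YAYC replicate 10. The 2 genes lie at chr3:107951239-107957800 on the minus strand and at chr6:99642673-99643812 on the plus strand (mm9).

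Gpr21 lies at chr2:37372146-37374801 on the plus strand (mm9). Its counts ranged from 4.86 to 26.7 with a median of 11.8 in NT2 and were 0, 11.6, 0, 0 and 17.9 in YAYC. The YAYC samples were split, with replicates 6 and 22 inside the NT2 range and replicates 4, 8 and 10 at 0, and a count of 0 allows up to 3 counts in a library, for counting error only. The means were 13.9 ± 7.78 (SD, n = 6) and 5.91 ± 8.39 (SD, n = 5). The log2 fold change of -1.16 ± 0.88 (SE) became -2.20 without YAYC replicate 22, the library that moved it most, and -0.84 without YAYC replicate 10. In GENCODE M21 the gene lies within Rabgap1 on the same strand, and Rabgap1 had a log2 fold change of -0.27 ± 0.11 (SE) in the same fit.

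**Figure D2:**
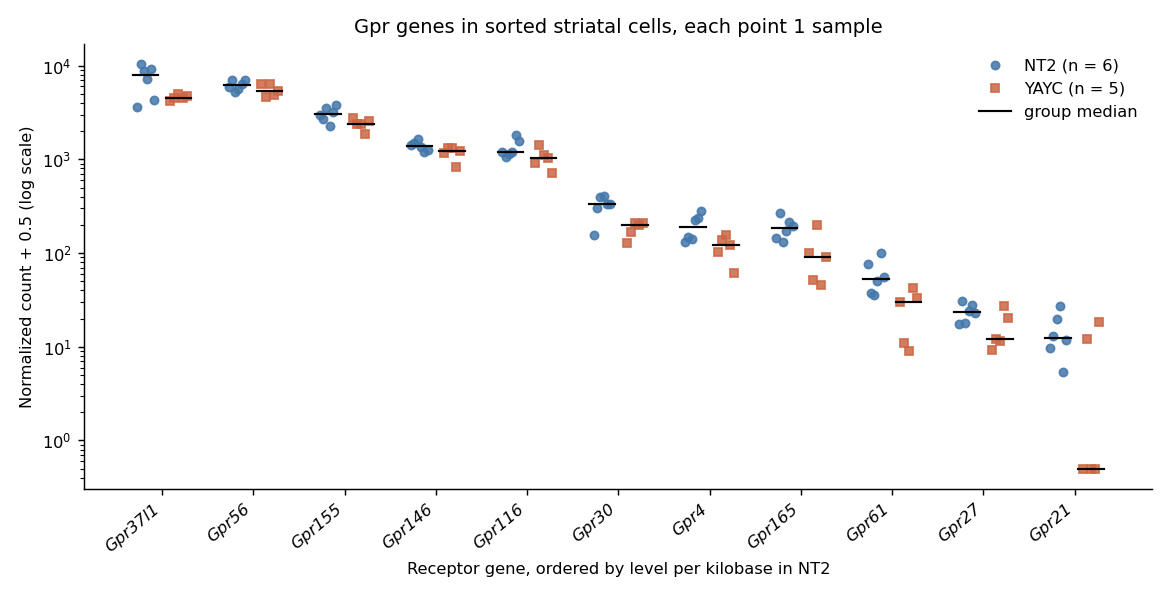
Normalized counts plus 0.5 on a log axis for the 11 Gpr genes, with 1 point for each NT2 (blue circles, n = 6) or YAYC sample (orange squares, n = 5) and black lines at the group medians. The groups overlap in every gene, the NT2 samples of Gpr37l1 spread from 3607 to 10360, and 3 YAYC samples of Gpr21 are at 0.

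Per kilobase of exon, on the scale of normalized counts, the mean level in NT2 ran from 3188 ± 1202 (SD, n = 6) for Gpr37l1 to 3.73 ± 2.08 (SD, n = 6) for Gpr21. Gpr56 followed Gpr37l1 at 1139, then Gpr155 at 462 and Gpr146 at 206. The ranges over NT2 samples of these 4 did not overlap from one to the next. Gpr146, Gpr116 at 148, Gpr30 at 127, Gpr4 at 67.3 and Gpr165 at 41.0 each overlapped the next in order. Gpr165 and Gpr61, at 15.9, did not overlap, whereas Gpr61, Gpr27 at 9.63 and Gpr21 did. Exon lengths here are those of GENCODE M21, which can differ from the gene models used for counting. They add up to 2388 bp for Gpr27 and 3733 bp for Gpr21, both longer than the whole gene in the table's coordinates. The levels and places of these genes in the order therefore depend on the annotation.

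**Figure D3:**
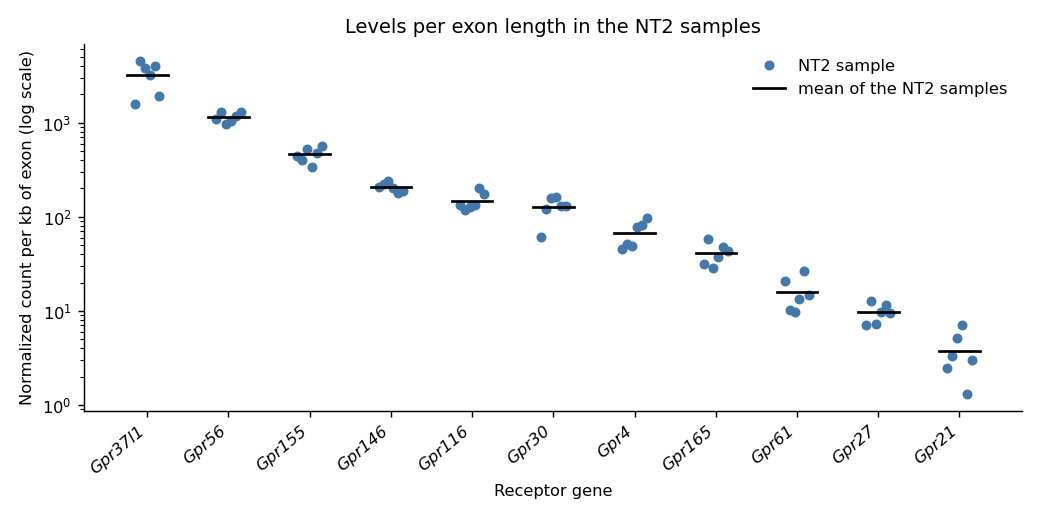
Normalized count per kilobase of exon (GENCODE M21, all exons merged) in the 6 NT2 samples, on a log axis, with lines at the means. The means fall from 3188 for Gpr37l1 to 3.73 for Gpr21, with the gaps after Gpr37l1, Gpr56, Gpr155 and Gpr165 free of overlap.

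At an adjusted p under 0.05 from edgeR's quasi-likelihood test over the whole table, 6 of the 11 receptors were called lower (Gpr4, Gpr30, Gpr37l1, Gpr61, Gpr155 and Gpr165) and 0 higher (also 0 at an unadjusted p under 0.05 and by DESeq2), where 21.3% of all listed genes were called lower and 39.0% higher. With the authors' scaling 9 receptors were called lower, all but Gpr21 and Gpr27, where 47.3% of the listed genes were called lower and 32.2% higher. The contrast chose the table, so nothing is read from these counts. No receptor had every YAYC sample below every NT2 sample, a pattern of 2.43% of the listed genes, and 1 had it with the authors' scaling, where 6.11% did. The 6 calls became 1 without NT2 replicate 21, 2 without YAYC replicate 4, 6, 10 or 22, and 3 without NT2 replicate 9 or 23 or YAYC replicate 8. Gpr30 was called in all 11 of these fits, Gpr61 in 7, Gpr4 and Gpr155 in 4, Gpr165 in 3, Gpr37l1 in 2 and Gpr116 in 1. The share of all listed genes called lower also moved over these fits, from 11.8% to 25%.

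The sample numbers in the labels run from 3 to 10 and from 21 to 23, and what separates these series is not stated. Among the samples numbered 3 to 10, with 4 in each group, all 11 receptors had a lower mean log2 count in YAYC. Gpr116 differed by -0.07 and Gpr4 by -0.30 there, Gpr30 by -0.78 and Gpr37l1 by -0.62. Among the samples numbered 21 to 23, which hold 1 YAYC sample, Gpr4 differed by -2.06 and Gpr116 by -1.23, and Gpr21 was higher by 1.22. With the number series as a covariate the receptors kept a median log2 fold change of -0.66, and 3 were called lower, where 17.9% of the listed genes were, with 6 at an unadjusted p under 0.05. For Gpr4 and Gpr116 YAYC replicate 22, in the second series, was the lowest YAYC sample. Without it the log2 fold change was -0.58 ± 0.26 (SE) for Gpr4 and -0.26 ± 0.17 (SE) for Gpr116.

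Markers of other cell types were also looked up in the table, whose choice by the same contrast bears on every marker in it, and their counts stand beside the 21.3% of all listed genes called lower. Of 13 listed astrocyte markers 5 were in the table (Slc1a3, Gjb6, Aldoc, Fgfr3 and Gja1), and all 5 were called lower. The sum of their normalized counts was 24500 to 73110 in NT2 and 13750 to 31680 in YAYC. Of 13 markers of oligodendrocytes and precursors only Ugt8a was in the table, called lower with sums of 9979 to 20620 against 10140 to 11870, and of 12 microglia markers only P2ry12, not called at 13340 to 25660 against 12840 to 16010. Of 12 endothelial and mural markers 8 were in the table, and 5 were called lower (Rgs5, Cldn5, Flt1, Esam and Slco1a4), with sums of 6933 to 10960 in NT2 and 4593 to 8131 in YAYC. No marker of these lists that was in the table had a mean of 0. In such bulk samples, fewer cells of a type and less RNA per cell cannot be told apart.

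A glial score, the mean log2 level of the 7 glial markers in the table, was 0.41 ± 0.60 (SD, n = 6) in NT2 and -0.49 ± 0.36 (SD, n = 5) in YAYC. A vascular score, made likewise from the 8 endothelial and mural markers, was 0.25 ± 0.24 (SD, n = 6) and -0.30 ± 0.27 (SD, n = 5). When the glial score entered the fit as a covariate, Gpr37l1 had a log2 fold change of 0.14 ± 0.22 (SE), Gpr27 one of -0.01 and Gpr30 one of -0.32, whereas Gpr4 (-0.77), Gpr116 (-0.36) and Gpr155 (-0.42) stayed near their values without it. With the vascular score, a covariate added after the data were seen, Gpr4 had 0.04 ± 0.36 (SE) and Gpr116 had 0.10 ± 0.23 (SE), whereas Gpr37l1 had -0.78 and Gpr30 had -0.66. No receptor was called by edgeR with either covariate, where 0.905% of the listed genes were called lower with the glial score and 0.0566% with the vascular score, and at an unadjusted p under 0.05 there were 0 with the glial score and 1 (Gpr165, -1.44) with the vascular score. Gpr61 kept a log2 fold change of -1.08 ± 0.56 (SE) with the glial and -1.55 ± 0.76 (SE) with the vascular score, with larger errors than without them, so that a lost call does not show a smaller difference. Both scores were made only from markers that had entered the table through this contrast. All 7 glial and all 8 vascular markers had a log2 fold change below 0. Each score thus stands in part for the group itself, and score and group are only partly separable with 11 samples. The fits with a score are given as a description, and nothing about a cell type is read from them.

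**Figure D4:**
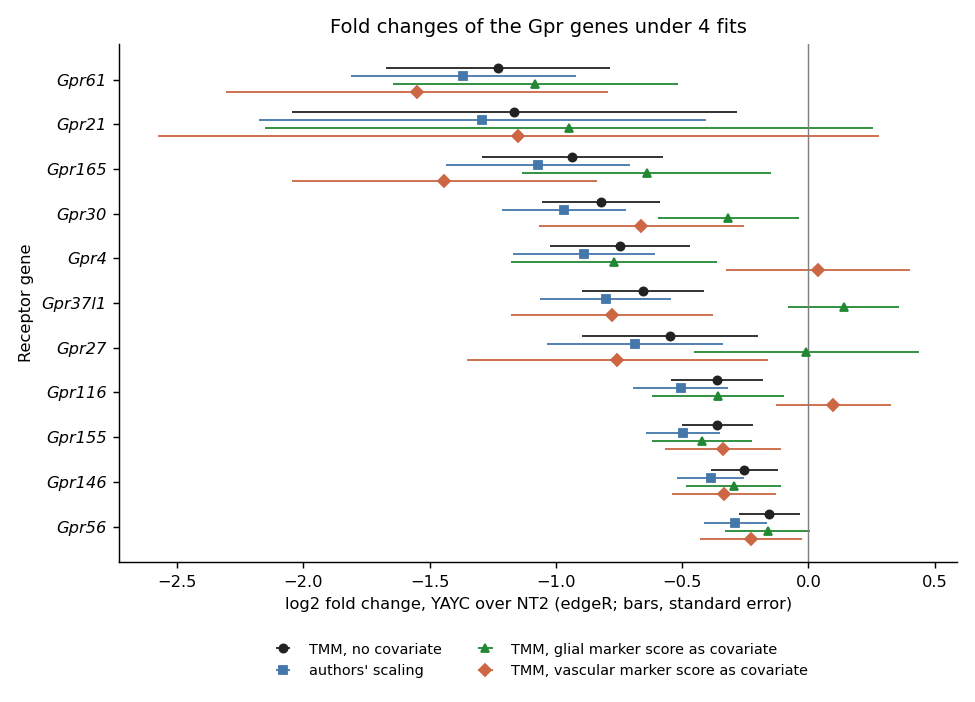
Log2 fold changes of YAYC over NT2 with standard errors from edgeR for each Gpr gene in 4 fits, with TMM (black), with the authors' scaling (blue), and with the glial (green) or vascular (orange) marker score as a covariate. Gpr37l1 moves from -0.66 to 0.14 with the glial score, and Gpr4 from -0.75 to 0.04 and Gpr116 from -0.36 to 0.10 with the vascular score.

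The relation of each receptor to both scores was also computed over the 11 samples after each group was centred on its mean, 22 relations in all, chosen after the data were seen. Gpr37l1 followed the glial score with r = 0.84 (permutation within groups, exact over 86400 arrangements, p = 0.0014, adjusted p = 0.030) and with rho = 0.78 (exact permutation p = 0.014, adjusted p = 0.16). Without NT2 replicates 3 and 21, whose scores lay farthest out, r was 0.70. This was the only relation with an adjusted p under 0.05 by r, and none reached it by rho. Gpr4 and the vascular score had r = 0.74 (exact permutation p = 0.021, adjusted p = 0.15) and rho = 0.67 (exact permutation p = 0.047, adjusted p = 0.34), with r = 0.69 without YAYC replicates 6 and 22. Gpr116 and the vascular score had r = 0.67 (exact permutation p = 0.038, adjusted p = 0.17) and rho = 0.49 (exact permutation p = 0.17, adjusted p = 0.76), and r was 0.38 without the same samples. Gpr30 and Gpr27 had r = 0.70 and r = 0.63 with the glial score (exact permutation, adjusted p = 0.17 and adjusted p = 0.15). By rank Gpr27, a receptor with low counts, had the same rho as Gpr37l1, 0.78 (exact permutation p = 0.014, adjusted p = 0.16). Gpr30 had rho = 0.53 (exact permutation p = 0.14, adjusted p = 0.76). Without NT2 replicates 3 and 21 r was 0.64 for Gpr27 and 0.52 for Gpr30. All receptors and score markers entered the table through this contrast and share the scaling of each library. The permutation also takes the samples of a group as exchangeable across both number series. These p-values are therefore given as a description. The part of these cell types in the group differences was not tested.

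**Figure D5:**
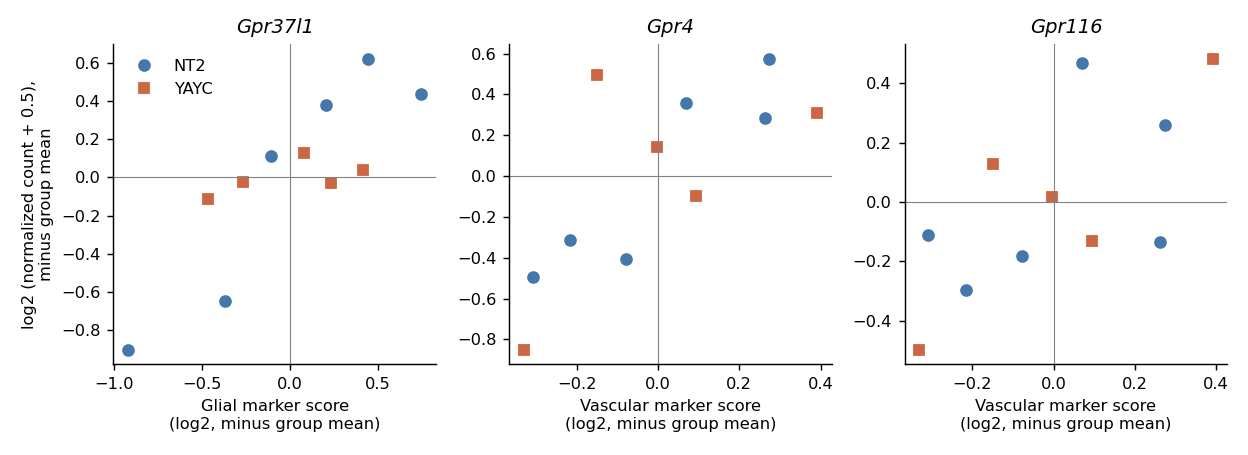
Log2 levels of Gpr37l1 against the glial marker score and of Gpr4 and Gpr116 against the vascular marker score, each minus its group mean, with NT2 samples as circles and YAYC samples as squares. The points of Gpr37l1 rise with the score mainly among the NT2 samples (r = 0.84 over all 11), with r = 0.74 for Gpr4 and 0.67 for Gpr116.

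The genes outside the series whose centred log2 levels were most like those of a receptor over the 11 samples are given as a description, since the libraries share their scaling. For Gpr37l1 they included Ncan (r = 0.96), which encodes neurocan, and Ednrb (r = 0.95), the endothelin receptor type B. For Gpr4 they were Slc22a21 (r = 0.89), Slco1a4 (r = 0.86) and Cd151 (r = 0.84), and for Gpr116 Foxc1 (r = 0.86), Pxmp4 (r = 0.85) and again Slco1a4 (r = 0.84), an organic anion transporter on the list of endothelial markers. Gpr30 was most like Aif1l (r = 0.94), Gpr146 like Slc7a5 (r = 0.90), Gpr155 like Fancf (r = 0.89), Gpr56 like Fam126a (r = 0.84) and Gpr165 like Barhl2 (r = 0.90), whose mean count was only 1.70. Among the receptors, the pairs most alike were Gpr56 and Gpr165 (r = 0.84), Gpr4 and Gpr116 (r = 0.81) and Gpr37l1 and Gpr30 (r = 0.62).

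No sample was uniformly low or high over the series. NT2 replicate 3 was the lowest control in 4 receptors (Gpr4, Gpr27, Gpr30 and Gpr37l1) and the highest in 0, and NT2 replicate 5 was the highest in 4. YAYC replicates 4 and 10 were each the lowest knockdown sample in 3 receptors and the highest in 2, leaving out the shared 0 of Gpr21, and YAYC replicate 8 was the highest in 4.

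Receptors under other names went in both directions in the table. Of 220 other receptors listed, 21 were in the table, 10 called lower, 5 called higher and 6 not called, against 21.3% lower and 39.0% higher over all listed genes. With the authors' scaling 14 were called lower, 5 higher and 2 not called, against 47.3% and 32.2%. Among receptors of amines, amino acids and peptides 9 of 122 were in the table, with Ednra (-0.90 ± 0.25), Grm3 (-0.76 ± 0.21), Hrh1 (-1.69 ± 0.51), Ednrb (-0.83 ± 0.27) and Calcrl (-0.50 ± 0.20) called lower, as log2 fold change ± SE. Called higher were the serotonin receptors Htr1b and Htr2b (1.26 ± 0.43) and the glutamate receptors Grm7, with mean counts of 203 in NT2 and 406 in YAYC, and Grm8 (2.73 ± 0.76). Htr1b rested on mean counts of 0.083 in NT2 and 7.51 in YAYC, and Grm8 on 3.59 in NT2 and 24.3 in YAYC. Of 66 receptors of lipids, nucleotides, chemokines and complement 7 were in the table, with S1pr1 (-1.10 ± 0.30) and Lpar1 (-0.65 ± 0.16) lower and Cmklr1 (0.90 ± 0.20) higher. Of 32 receptors on a list of adhesion and frizzled receptors under other names 5 were in the table, with Fzd6 (-0.73 ± 0.14) and Fzd3 (-0.60 ± 0.22) lower and 0 higher. Lgr4 (-0.76 ± 0.27), on that list though it belongs to neither class, was also called lower.

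Of 144 genes listed for the signalling below the receptors, 18 were in the table, 1 called lower, 5 called higher and 12 not called, and with the authors' scaling 11 were called lower, 5 higher and 2 not called. These counts stand beside the shares of all listed genes given above, 21.3% lower and 39.0% higher with TMM and 47.3% and 32.2% with the authors' scaling. Among 32 subunits of heterotrimeric G proteins 5 were in the table, with the gamma subunits Gng4 (1.28 ± 0.29) and Gng13 (1.30 ± 0.48) called higher. Gng13 rested on mean counts of only 6.05 in NT2 and 14.8 in YAYC. Rgs2, which speeds the return of G proteins to the inactive state, was called higher (0.42 ± 0.12), and Rgs5, also a mural cell marker, lower (-0.79 ± 0.21), of 4 regulators in the table among 31 listed. Prkar1b, a regulatory subunit of the kinase that answers to cyclic AMP, was called higher (0.83 ± 0.18), 1 of 3 genes in the table among 33 listed. Rtp4, which helps receptors to reach the cell surface, was called higher (1.02 ± 0.34), 1 of 4 in the table among 21 listed. Of 16 receptor kinases and arrestins 2, and of 12 genes around phospholipase C beta 1, were in the table and not called with TMM, and all of them (Adrbk2, -0.51, Arrdc3, -0.43, and Plcb3, -0.33) were called lower with the authors' scaling. The genes called with TMM kept their direction with the authors' scaling, but the calls among the signalling genes turned from mostly higher to mostly lower. With TMM 12 of the 18 genes already had a log2 fold change below 0 and 6 had one above 0.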

How the data were processed

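The authors sequenced amplified cDNA of 6 NT2 and 5 YAYC samples as single reads of 50 bases and counted reads per gene with Strand NGS. Their deposited table holds estimated counts, not normalized, of which 52.9% are whole within 0.001, and log2 values that the authors scaled per sample and centred per gene. The submitters' processing notes name mm9, and the aligner and the use of strand are not given in the sources used here. The table also holds the authors' p-values, directions and fold changes, which were not used except to find that all p-values are under 0.05.

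After rounding of the estimated counts to whole numbers, edgeR 4.0.16 in R 4.3.3 (glmQLFit and glmQLFTest after TMM normalization, group as the only term) was fitted on all 1767 genes, with Benjamini-Hochberg adjustment. A gene was called at an adjusted p under 0.05. The SE given for an edgeR log2 fold change was derived as its absolute value divided by the square root of the quasi-likelihood F statistic. The script was tested on simulated data in which most genes were unchanged and as many were raised as lowered. That setting does not test TMM on a table chosen by the contrast. Scores and correlations used log2 of the normalized count plus 0.5. The alternatives were DESeq2 1.42.0, its size factors, the authors' scaling, recovered from 1247 genes with more than 50 counts, a highest count of at least 200, a block of sample numbers or a marker score as a covariate, a robust fit and omission of single samples. Exon lengths and overlaps come from GENCODE M21 (GRCm38) and promoters from RefSeq. No coordinates were converted.

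The receptors, the gene lists and the tests were chosen with earlier results of these data known. All receptors of the series were named, of each list the called genes up to 6 by smallest p, and for receptors with a mean count of at least 100 the genes most like them, up to 3. Library depth is not held in the table, so a gene's own counts limit its precision. Samples were grouped by the vector in their labels. Of the genes most like Gpr37l1, 1 is not reported here.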

Additional observations from a re-analysis of the deposited data

How the results depend on the processing

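Over 19 alternative settings the receptors had 206 log2 fold changes, 203 below 0 and 3 above 0. Those above 0 were Gpr37l1 with the glial score as a covariate (0.14) and, with the vascular score, a covariate added after the data were seen, Gpr4 (0.038) and Gpr116 (0.10). The number of receptors called lower, 6, was 3 with the block of sample numbers as a covariate, at the same median of -0.66, 0 with the glial score, 0 with the vascular score and 1 of the 8 receptors left with a highest count of at least 200, where fewer genes were tested. It ranged from 1 to 6 with each sample left out. The median log2 fold change, -0.66, was -0.46 with that count minimum and -0.36 with the glial score, and ranged from -0.79 to -0.53 with each sample left out. The number of receptors without overlap, 0, was 1 with the authors' scaling and ranged from 0 to 1 with each sample left out, being 1 without NT2 replicate 3, without YAYC replicate 8 and without YAYC replicate 10. No share of all listed genes is given for the count minimum, for the overlap with samples left out or for unadjusted p. Those counts of receptors are therefore not read as a result. Other causes were not tested.

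No paired analysis was made, because the labels state no pairing and the groups share no sample number. Counts under 50 limit Gpr21 and Gpr27, and every receptor entered the table through the contrast described.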
